A study of Mus musculus with 24 samples.

Results

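The MHC class II presentation genes H2-Aa, H2-Ab1, H2-Eb1, Cd74, Ciita, H2-DMa and H2-DMb1, 7 genes of the 54532 in the count tables, were followed in 4 tissues of Trex1-KO mice. They were chosen by symbol in GENCODE M21, and each symbol matched 1 Ensembl identifier. RNA-Seq was done on heart, stomach, muscle and tongue, with 3 control and 3 SN-011 samples of each tissue, 24 samples in all. Every group, controls included, carries the Trex1 knockout, which the study describes on a C57BL/6J background, so no wild-type level is available here. SN-011 is a STING antagonist. The labels call the controls untreated and give 5 mg/kg SN-011, 3 times per week for 4 weeks, whereas the study's methods describe vehicle controls and another dose and schedule for mice a month old. The labels do not say which samples came from the same mouse, so the spread between samples is taken as the error throughout.

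MHC class II molecules carry peptides from endocytosed proteins to CD4+ T cells. They are held constitutively by dendritic cells, B cells and macrophages, and can be induced by interferon-gamma in other cells. H2-Aa and H2-Ab1 encode the alpha and beta chains of I-A, and H2-Eb1 encodes the beta chain of I-E. Cd74 encodes the invariant chain, which fills the groove until it is degraded. H2-DMa and H2-DMb1 encode chains of H2-M, which exchanges the remnant of the invariant chain for peptide. Ciita encodes the coactivator that is recruited to the promoters of these genes by RFX, CREB and NF-Y factors on the X and Y boxes.

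On GRCm38 as annotated by GENCODE M21, H2-Aa (ENSMUSG00000036594, chr17:34282744-34287823), H2-Ab1 (ENSMUSG00000073421, chr17:34257689-34269419) and H2-Eb1 (ENSMUSG00000060586, chr17:34305867-34316674) lie together on chromosome 17. H2-DMa (ENSMUSG00000037649, chr17:34119541-34139101) and H2-DMb1 (ENSMUSG00000079547, chr17:34153072-34160230) lie on the same chromosome. Ciita (ENSMUSG00000022504) is at chr16:10480059-10528418, where exons of Dexi overlap it on the other strand. Cd74 is ENSMUSG00000024610. The exon length used for each gene is that of all its annotated exons joined.

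The X and Y boxes are the sequence through which Ciita acts on the other genes, so the stretch that holds them is shown. RefSeq promoters of GRCm38.p6 matched H2-Aa, H2-Eb1, H2-DMa and H2-DMb1, with 2 entries for H2-DMa. The 90 bases that run from 110 to 21 bases before the RefSeq start are printed 5′ to 3′ along each gene. Capitals mark AGNAACNG (core of the X1 box) and ATTGG (core of the Y box, CCAAT on the other strand), both searched on both strands. H2-Eb1 is at chr17:34305757-34305846 on the plus strand, H2-DMb1 at chr17:34153081-34153170 on the plus strand and H2-Aa at chr17:34287844-34287933 on the minus strand.
H2-Eb1: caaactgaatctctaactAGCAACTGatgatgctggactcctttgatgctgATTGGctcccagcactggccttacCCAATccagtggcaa
H2-DMb1: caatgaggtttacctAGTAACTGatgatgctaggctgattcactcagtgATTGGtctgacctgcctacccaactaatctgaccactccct
H2-Aa: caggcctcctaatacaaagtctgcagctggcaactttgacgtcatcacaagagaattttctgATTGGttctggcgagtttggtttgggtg
H2-Eb1 and H2-DMb1 held both cores on the coding strand, with the X1 core at −92 to −85 and −95 to −88 and the Y core at −59 to −55 and −61 to −57. H2-Aa held the Y core at −48 to −44 and no match to the X1 letters. The 2 entries of H2-DMa, not printed, held no X1 match, and 1 of them held the Y core, at −198 to −194. Of 32851 RefSeq promoters of the same length, 37.4% held ATTGG, 17.4% held AGNAACNG, and 1.70% held both at most 30 bases apart. None of the matched member promoters held CACGTG, an E box found in 7.15% of promoters, or TTCNNNGAA, a STAT site found in 8.30%.

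Total counts per sample were 14253416 to 18443329, and a count of 3, the smallest taken as shown, was worth 0.163 to 0.210 CPM (counts scaled to the library size), a limit of counting alone. Control replicate 1 of every tissue held 3060 to 13811 counts of Xist and at most 3 of Ddx3y, whereas the other samples held at least 825 counts of Ddx3y, so sex is not balanced between the groups. Only 11546 genes were detected in muscle SN-011 replicate 2, while no other sample had fewer than 19798. Because the annotated Trex1 gene lies over Atrip, its count of 0 in each of the 24 samples is no check of the genotype. Stomach markers (Atp4a, Atp4b, Muc5ac, Tff1 and Pgc) summed to 2224 and 201.6 CPM in heart control replicates 2 and 3, to 1993 and 1230 CPM in the tongue and to 397.4 and 147.5 CPM in the muscle of the same control numbers. They summed to at most 31.9 CPM in the other heart, tongue and muscle samples. In bulk tissue, fewer cells that hold class II RNA and less class II RNA per cell cannot be told apart.

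Class II transcripts were present in all 4 tissues of the control mice and were in the same order of tissues for all 7 genes: heart, then tongue, stomach and muscle. Levels of different genes were compared as CPM per kb of exon, with TMM scaling over all 24 samples. Cd74 was the highest of the 7 in every tissue. Its control mean was 1374 ± 305 CPM per kb in the heart (SD, n = 3), 807 ± 258 in the tongue, 610 ± 135 in the stomach and 418 ± 9.09 in the muscle. The I-A and I-E chains came next. H2-Aa was at 235 ± 55.9 CPM per kb in the control heart and 58.4 ± 2.06 in the muscle, H2-Ab1 at 289 ± 65.0 and 113 ± 2.48, and H2-Eb1 at 415 ± 74.9 and 126 ± 3.06. The H2-M chains were lower, with control means of 53.6 ± 9.70 in the heart and 21.9 ± 3.48 in the muscle for H2-DMb1, and 22.3 ± 4.91 and 6.71 ± 1.07 for H2-DMa. Ciita was the lowest, at 3.72 ± 1.71 CPM per kb in the control heart, 1.68 ± 0.578 in the tongue, 1.10 ± 0.541 in the stomach and 0.953 ± 0.184 in the muscle. Cd74 was thus 369-fold above Ciita per kb in the control heart and 5.85-fold above H2-Aa. H2-Ea-ps, the alpha chain partner of H2-Eb1 that is not expressed in C57BL/6 mice, had 0 counts in all 24 samples, while H2-Eb1 was read in every one.

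**Figure D1:**
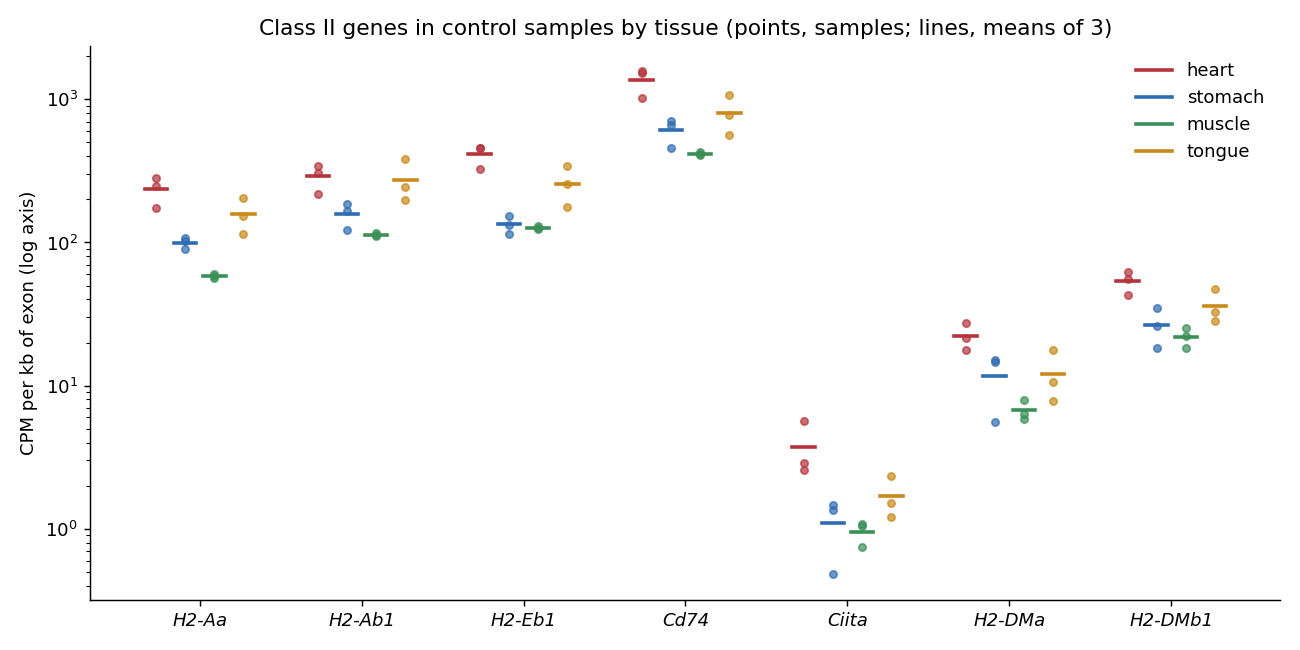
CPM per kb of exon (log axis, TMM over all 24 samples) of the 7 class II genes in control samples; points are samples, lines are means of 3, and colours are tissues. Cd74 lies between 410 and 1575 and Ciita between 0.479 and 5.69, and the mean is highest in the heart and lowest in the muscle for every gene.

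Neighbours in the order of tissues were compared in 1 fit of all samples, with p-values adjusted by Benjamini-Hochberg over the 19731 genes tested (edgeR's quasi-likelihood test). Heart exceeded stomach for 7 of 7 genes, against a background of 42.5% of all genes called in either direction, and exceeded muscle for 7 of 7 (background 33.7%). Leaving out 1 library ended the call between heart and stomach for Ciita (heart control 3 or stomach control 1), H2-DMa (heart control 1 or 3 or stomach control 3) and H2-Ab1 (heart control 1 or stomach control 3), and between heart and muscle for Ciita (heart control 3 or any muscle control). The highest adjusted p was then 0.144, 0.119, 0.0622 and 0.114. Without control replicate 1 in every tissue, heart still exceeded stomach for 5 of 7 (not H2-Ab1 or Ciita) and muscle for 6 of 7 (not Ciita). The heart to muscle difference was 2.01 ± 0.25 on the log2 scale for H2-Aa (estimate ± SE, adjusted p = 2.33e-06) and 1.72 ± 0.27 for Cd74 (adjusted p = 5.22e-05). Between heart and tongue only H2-Eb1, Cd74 and H2-DMa passed, 3 of 7 (background 29.1%), and H2-Ab1 differed by 0.08 ± 0.27. Tongue exceeded stomach for H2-Aa, H2-Ab1 and H2-Eb1, 3 of 7 (background 36.9%). Stomach exceeded muscle for H2-Aa and H2-DMa, 2 of 7 (background 51.6%), and tongue exceeded muscle for 6 of 7, all but Ciita (background 38.1%). Without tongue control replicate 2 the last count was 3 (background 31.3%), with adjusted p = 0.0668 for Cd74, 0.165 for H2-DMb1 and 0.325 for H2-DMa. H2-DMa was at the threshold (adjusted p = 0.0474) and also lost this call without most other single libraries and with samples of 1 treatment and number as a block (0.0729). H2-DMb1 also lost it without muscle control 1 (0.0998) or 3 (0.0607), and without control replicate 1 in every tissue both were lost, leaving 4 of 7. With 7 genes, the counts of 3, 3 and 2 between neighbours in the order of tissues can be set only roughly beside these backgrounds, which hold both directions. In the direction of the members alone, 2671 (heart above tongue), 3951 (tongue above stomach) and 5394 (stomach above muscle) of all 19731 genes were called. The member counts also moved when single libraries were left out. The block ended 1 call in each of the 3 pairs, H2-Eb1 (heart and tongue), H2-Aa (tongue and stomach) and H2-DMa (stomach and muscle). Without control replicate 1 in every tissue, heart against tongue and stomach against muscle left 0 genes called. Between stomach and muscle, DESeq2 size factors called 4 of 7 (background 53.4%) and library size alone called 6 (58.8%), where the median of all genes moved to 0.91.

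SN-011 was next compared with control in each tissue, which asks whether the class II genes respond to the STING antagonist. No class II gene passed the threshold in any tissue: 0 of 7 in the heart (background 0.848% of genes called), 0 of 7 in the stomach (background 0%), 0 of 7 in the muscle (background 0.0141%) and 0 of 7 in the tongue (background 0%). The estimates were nevertheless below 0 for all 7 genes in heart, stomach and tongue and for 6 of 7 in the muscle. Medians of the 7 log2 fold changes were −0.35 (heart), −0.93 (stomach), −0.17 (muscle) and −0.27 (tongue), beside −0.01, 0.00, −0.08 and −0.01 over all genes tested. At an unadjusted p under 0.05, 5 of 7 were lower in the stomach (background 11.4%), 1 of 7 in the heart (11.6%), 1 of 7 in the tongue (7.33%) and 0 of 7 in the muscle (5.8%). Every SN-011 sample lay below every control for 5 of 7 genes in the stomach (background 15.2%), 2 of 7 in the muscle (19.8%), 1 of 7 in the heart (13.1%) and 1 of 7 in the tongue (8.38%). The muscle count depends on the scaling: with TMM over all 24 samples it was 5 of 7 (background 21.6%), as many as the 5 of 7 in the stomach (16.1%), and heart (13.4%) and tongue (7.92%) stayed at 1 of 7. A permutation of 3 against 3 samples cannot give a p below 0.1. All values that follow are CPM scaled by TMM within the tissue, in the order of replicates 1, 2 and 3.

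**Figure D2:**
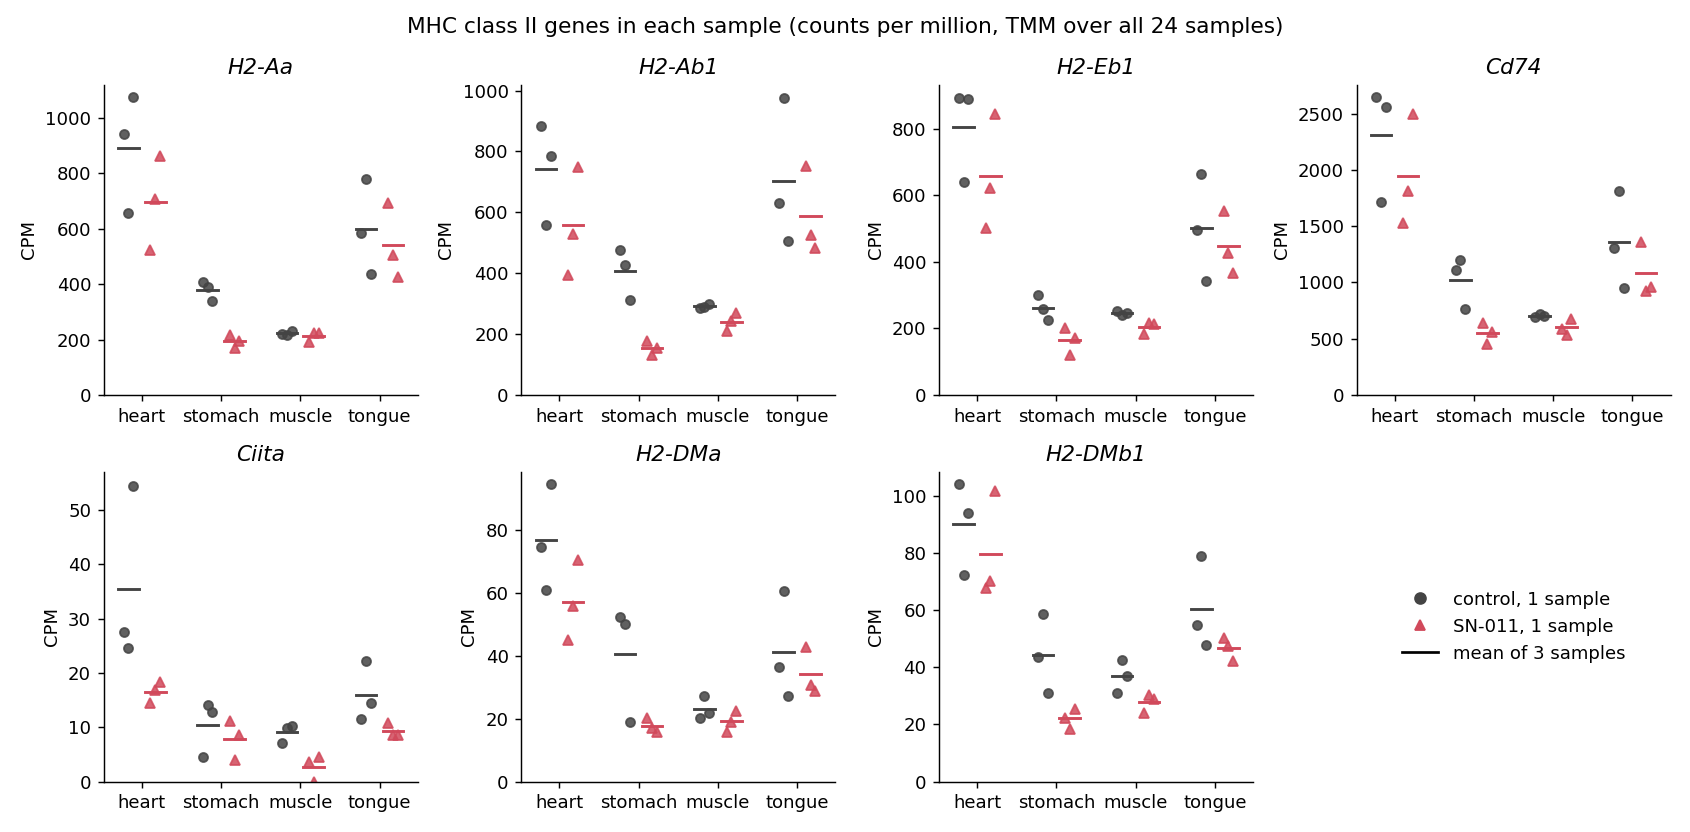
CPM of each class II gene in each of the 24 samples (TMM over all samples, linear axes from 0); circles are control samples, triangles SN-011 samples and lines means of 3. On this scale the groups are apart for 5 genes in the stomach and for 5 in the muscle, while heart and tongue groups overlap for every gene but Ciita.

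The chains of I-A and I-E had their lowest estimates in the stomach. H2-Ab1 was at 556, 509 and 388 CPM in the control stomach and at 218, 160 and 190 CPM with SN-011. The groups did not overlap, and the log2 fold change was −1.35 ± 0.30 (adjusted p = 0.0733). H2-Aa was at 475, 465 and 420 CPM in the controls and 266, 206 and 240 CPM with SN-011, a log2 fold change of −0.93 ± 0.28 (adjusted p = 0.108). H2-Eb1 was at 349, 308 and 277 CPM and at 250, 147 and 211 CPM, a log2 fold change of −0.62 ± 0.30 (adjusted p = 0.244). In each of the 3 genes the lowest control stood above the highest SN-011 sample. In the heart, H2-Ab1 was at 979, 628 and 876 CPM in controls and 441, 593 and 842 CPM with SN-011, so that SN-011 replicate 3 lay within the controls (log2 fold change −0.40 ± 0.25, adjusted p = 0.375). That estimate was −0.70 without SN-011 replicate 3 and −0.20 without SN-011 replicate 1. The tongue was wider still, with H2-Ab1 at 754, 1142 and 597 CPM in controls and 881, 620 and 576 CPM with SN-011 (−0.26 ± 0.27, adjusted p = 0.695). Without tongue control replicate 2, the highest of its group, the tongue estimate was 0.03. In the muscle H2-Ab1 was at 177, 174 and 177 CPM in controls and 127, 176 and 164 CPM with SN-011, and H2-Aa at 136, 130 and 137 CPM and at 117, 162 and 136 CPM. With this scaling both muscle groups overlapped. Scaled over all samples, H2-Ab1 was at 285.8, 288 and 298 CPM in the control muscle and 209, 242 and 268 CPM with SN-011, which did not overlap, while H2-Aa still overlapped. H2-Aa in the muscle was the 1 estimate above 0 (0.04 ± 0.14), which was below 0 under 5 of the alternatives.

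Cd74, the invariant chain, passed in no tissue and had its lowest estimate in the stomach. It was at 1297, 1426 and 950.5 CPM in the control stomach and 790.3, 553 and 686 CPM with SN-011, which did not overlap (−0.86 ± 0.36, adjusted p = 0.193). In the muscle the spread was narrow, with 427, 434 and 416 CPM in controls and 359, 390 and 413 CPM with SN-011. Those groups were apart by less than 3 CPM, and the log2 fold change was −0.14 ± 0.11 (adjusted p = 0.617). In the heart, controls were at 2929, 1931 and 2849 CPM and SN-011 samples at 1713, 2026 and 2799 CPM, and in the tongue at 1557, 2119 and 1125 CPM and at 1593, 1093 and 1150 CPM. The groups overlapped in both, with log2 fold changes of −0.24 ± 0.24 and −0.32 ± 0.26. Single libraries moved both: the heart estimate was −0.48 without SN-011 replicate 3 and −0.087 without SN-011 replicate 1, and the tongue estimate −0.53 without control replicate 3 and −0.072 without control replicate 2.

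The peptide exchange chains were also lower in the stomach. H2-DMb1 was at 50.9, 70.1 and 38.2 CPM in the control stomach and 27.8, 22.6 and 31.1 CPM with SN-011 (−0.97 ± 0.28, adjusted p = 0.102). H2-DMa was at 61.0, 59.9 and 23.6 CPM and at 25, 20.8 and 19.5 CPM (−1.14 ± 0.36, adjusted p = 0.119). The groups were apart for H2-DMb1 and overlapped for H2-DMa, whose control replicate 3 sat among the SN-011 samples. In heart, muscle and tongue the log2 fold changes of both genes lay between −0.42 and −0.17, and the groups overlapped, except for H2-DMb1 in the muscle when scaled over all samples. Of 100-base stretches of their transcripts, H2-DMb1 shares 11.3% with H2-DMb2, and H2-DMa shares 6.58% with Brd2, which overlaps it on the other strand, so counting could divide reads between them. H2-DMb2 had a log2 fold change of −1.01 in the stomach (adjusted p = 0.128).

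For Ciita the groups were apart in heart, muscle and tongue and overlapped in the stomach. In the heart it was at 30.6, 27.7 and 60.5 CPM in controls and 16.2, 18.8 and 20.7 CPM with SN-011. The groups did not overlap, and the log2 fold change was −1.09 ± 0.28 (adjusted p = 0.0882). Control replicate 3, the highest, also held the most B cell marker RNA, a sum of 383 CPM over 6 genes against 49.4 and 20.7 CPM in the other controls and 8.20 to 165 CPM with SN-011; its part in the result was not tested. Without that library the log2 fold change was −0.66 (adjusted p = 0.13), and without control replicate 2 it was −1.29 (adjusted p = 0.0378). The tongue was at 13.7, 25.9 and 17.1 CPM in controls and 12.6, 10.1 and 10.2 CPM with SN-011, again apart (−0.78 ± 0.26, adjusted p = 0.342). Without tongue control replicate 1 that estimate was −0.97 (adjusted p = 0.0286), and without control replicate 2 it was −0.49. In the muscle Ciita had its lowest levels, at 4.38, 6 and 6.1 CPM in controls and 2.21, 0 and 2.72 CPM with SN-011 (−1.73 ± 1.20, adjusted p = 0.567). The 0 belongs to the library with few detected genes, and leaving it out gave −1.15 (adjusted p = 0.0455). In the stomach, where the other 6 genes had their lowest estimates, Ciita was at 5.32, 16.8 and 15.9 CPM in controls and 13.8, 4.81 and 10.4 CPM with SN-011, and the groups overlapped (−0.39 ± 0.53, adjusted p = 0.679). That estimate was −0.78 without control replicate 1, −0.73 without SN-011 replicate 1 and −0.081 without SN-011 replicate 2. No test compared the change of Ciita with that of the other genes.

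Other count tests called more, of the members and of all genes. In the stomach DESeq2's Wald test called 5 of 7 members (background 10.4% of all genes), the joint fit of all tissues 5 (13.9%), edgeR's exact test 4 (10.8%) and the fit with no filter 2 (4.98%). In the heart DESeq2 (background 7.47%), the exact test (5.68%) and no filter (6.23%) each called Ciita, 1 of 7. No single library left out in the stomach gave a call.

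Averaged over the 4 tissues in the joint fit, 6 of 7 class II genes fell with SN-011, where 7.67% of all 19731 genes were called lower. The mean log2 fold changes were −0.59 ± 0.13 for H2-Ab1 (adjusted p = 0.00755), −0.49 ± 0.12 for H2-DMb1 (adjusted p = 0.0106), −0.54 ± 0.16 for H2-DMa (adjusted p = 0.0338), −0.38 ± 0.12 for H2-Aa (adjusted p = 0.0389), −1.01 ± 0.31 for Ciita (adjusted p = 0.0399) and −0.42 ± 0.13 for Cd74 (adjusted p = 0.0404). H2-Eb1 was at −0.35 ± 0.13 and did not pass (adjusted p = 0.0753). The median of the 7 was −0.49, beside −0.09 over all genes. Stomach estimates weigh in these means. In the same fit they were −0.97 for H2-Aa, −1.40 for H2-Ab1, −0.90 for Cd74, −1.19 for H2-DMa and −1.01 for H2-DMb1. For Ciita, fitted in each tissue alone, the stomach estimate was the weakest of the 4 (−0.39). These calls lie close to the threshold: of 24 libraries left out one at a time, 12 left only 2 or 3 genes called and 12 left 4 to 6. Without control replicate 1 of every tissue, H2-Ab1, Ciita and H2-DMb1 remained called, 3 of 7. The fit treats samples of different tissues as independent, and tissues of the same mouse may not be. Samples of 1 treatment and number were taken as a block in limma-voom, at a common correlation of 0.0322 over all genes. There H2-DMa no longer passed (adjusted p = 0.127) and 5 of 7 did. That fit called 1054 of all 19731 genes lower, and the joint edgeR fit 1514. It changed the test as well as adding the block, so their parts cannot be told apart. Library size alone ended the calls of H2-Aa (adjusted p = 0.0628) and Cd74 (0.0521), and no filter that of H2-Aa (0.0605). DESeq2's Wald test also called H2-Eb1 (adjusted p = 0.0453), where 2495 of 19829 genes were called lower.

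**Figure D3:**
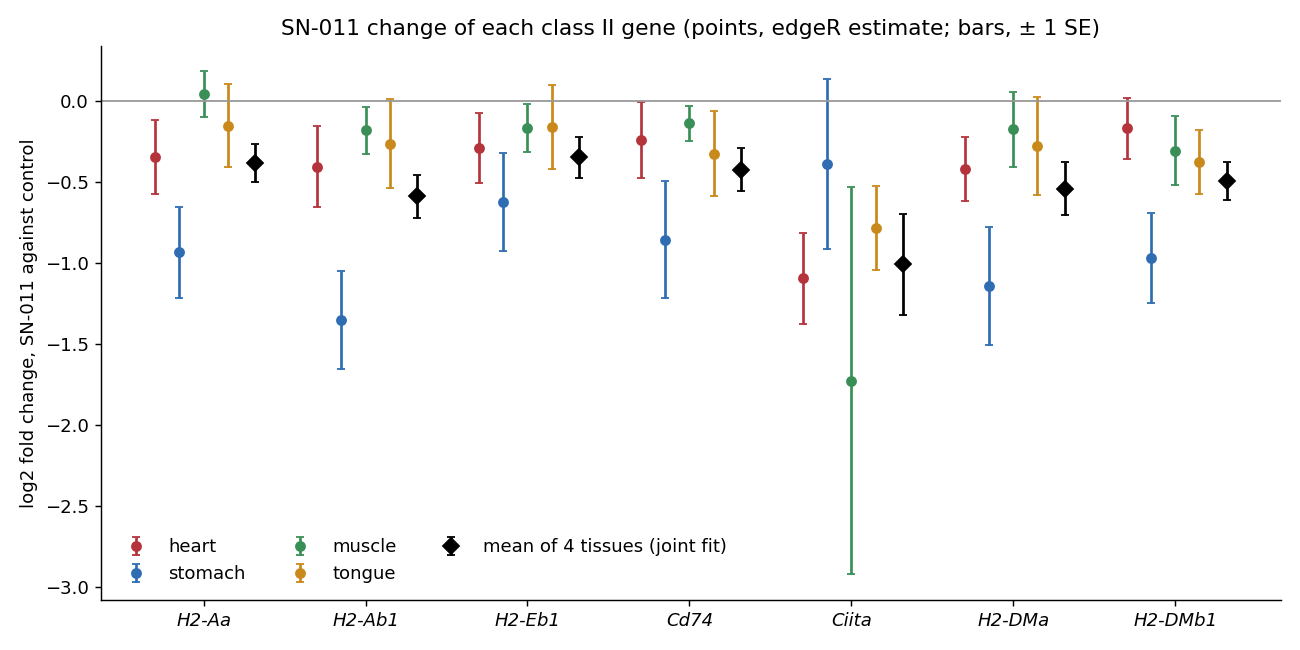
Log2 fold change of SN-011 against control for each class II gene; circles are the tissues fitted alone, diamonds the mean of 4 tissues in the joint fit, and bars ± 1 SE. Stomach estimates are lowest for 6 of the 7 genes, and the mean of 4 tissues lies between −1.01 and −0.35.

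Whether the stomach differed from the other tissues was tested directly as a difference of the SN-011 changes. No member passed in any pair of tissues, 0 of 7 each. With the stomach, the share of all genes called was 2.01% against heart, 6.95% against muscle and 0.821% against tongue. Without it, the share was 0.00507% for heart and muscle, 0% for tongue and heart and 0.0355% for muscle and tongue. At an unadjusted p under 0.05, 2 of 7 members differed between stomach and heart (background 17%), 2 between stomach and muscle (24.1%) and 2 between stomach and tongue (15.4%), and 0 differed in the other pairs (6.6% for heart and muscle, 2.83% for tongue and heart, 8.1% for muscle and tongue). With 7 genes, a count of 2 is near these shares. H2-Ab1 gave the lowest adjusted p. Its SN-011 change was lower in the stomach than in the muscle by −1.12 ± 0.38 (adjusted p = 0.0772), than in the tongue by −1.13 ± 0.38 (adjusted p = 0.145), and the heart exceeded the stomach by 0.98 ± 0.38 (adjusted p = 0.181). Between stomach and muscle, DESeq2 called 1 member (background 14.2%), and edgeR without stomach control replicate 3 called 2 (11.9%).

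The rest of the pathway was read as lists. Of 15 other class II pathway genes (H2-O, H2-DMb2, H2-Eb2, endosomal proteases, the thiol reductase Ifi30, MARCH ligases and others), 12 to 14 were tested per tissue and 0 passed in any tissue. Median log2 fold changes of the list were −0.23 for heart, −0.45 for stomach, 0.00 for muscle and −0.21 for tongue. Averaged over tissues, where 7.67% of all genes were called lower and 4.32% higher, H2-Eb2 and Ctsb fell and Ctsl rose. Ctsl, a cathepsin that degrades the invariant chain in thymic epithelium, rose by 0.65 ± 0.12 (adjusted p = 0.00169). H2-Eb2, a class II beta gene close to H2-Eb1, was low, with means of 4.13 CPM in the control stomach and 0.566 CPM with SN-011. Of 16 regulators, 0 passed in any tissue, and 6 fell averaged over tissues (background 7.67%). Among them were Irf1, a transcription factor induced by interferon (−0.65 ± 0.15, adjusted p = 0.00995), and Ifng, which encodes interferon-gamma (−1.67 ± 0.42, adjusted p = 0.0123, at no more than 10 counts a sample in the stomach and 12 in the muscle, where it was not tested alone), as well as Irf8, Socs1 and Ifngr2. Of the 6 genes of the RFX and NF-Y complexes that bind the X and Y boxes, 0 passed averaged over tissues, with estimates from −0.78 (Rfx5) to 0.27 (Rfxank), and 2 were lower at an unadjusted p under 0.05 (background 17%). These genes outside the members were named after their values were seen.

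MHC class I genes, which present cytosolic peptides to CD8+ T cells, had median log2 fold changes over 10 genes of −0.24 for heart, −1.04 for stomach, −0.40 for muscle and −0.35 for tongue. Class II medians were −0.35, −0.93, −0.17 and −0.27. For 10 type I interferon genes the medians were −0.48, −1.15, −0.98 and −0.93. Averaged over tissues, 8 of 10 class I genes and 8 of 10 interferon genes fell (background 7.67%), and no gene of either list passed within a single tissue. No test compared these lists with the class II genes.

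**Figure D4:**
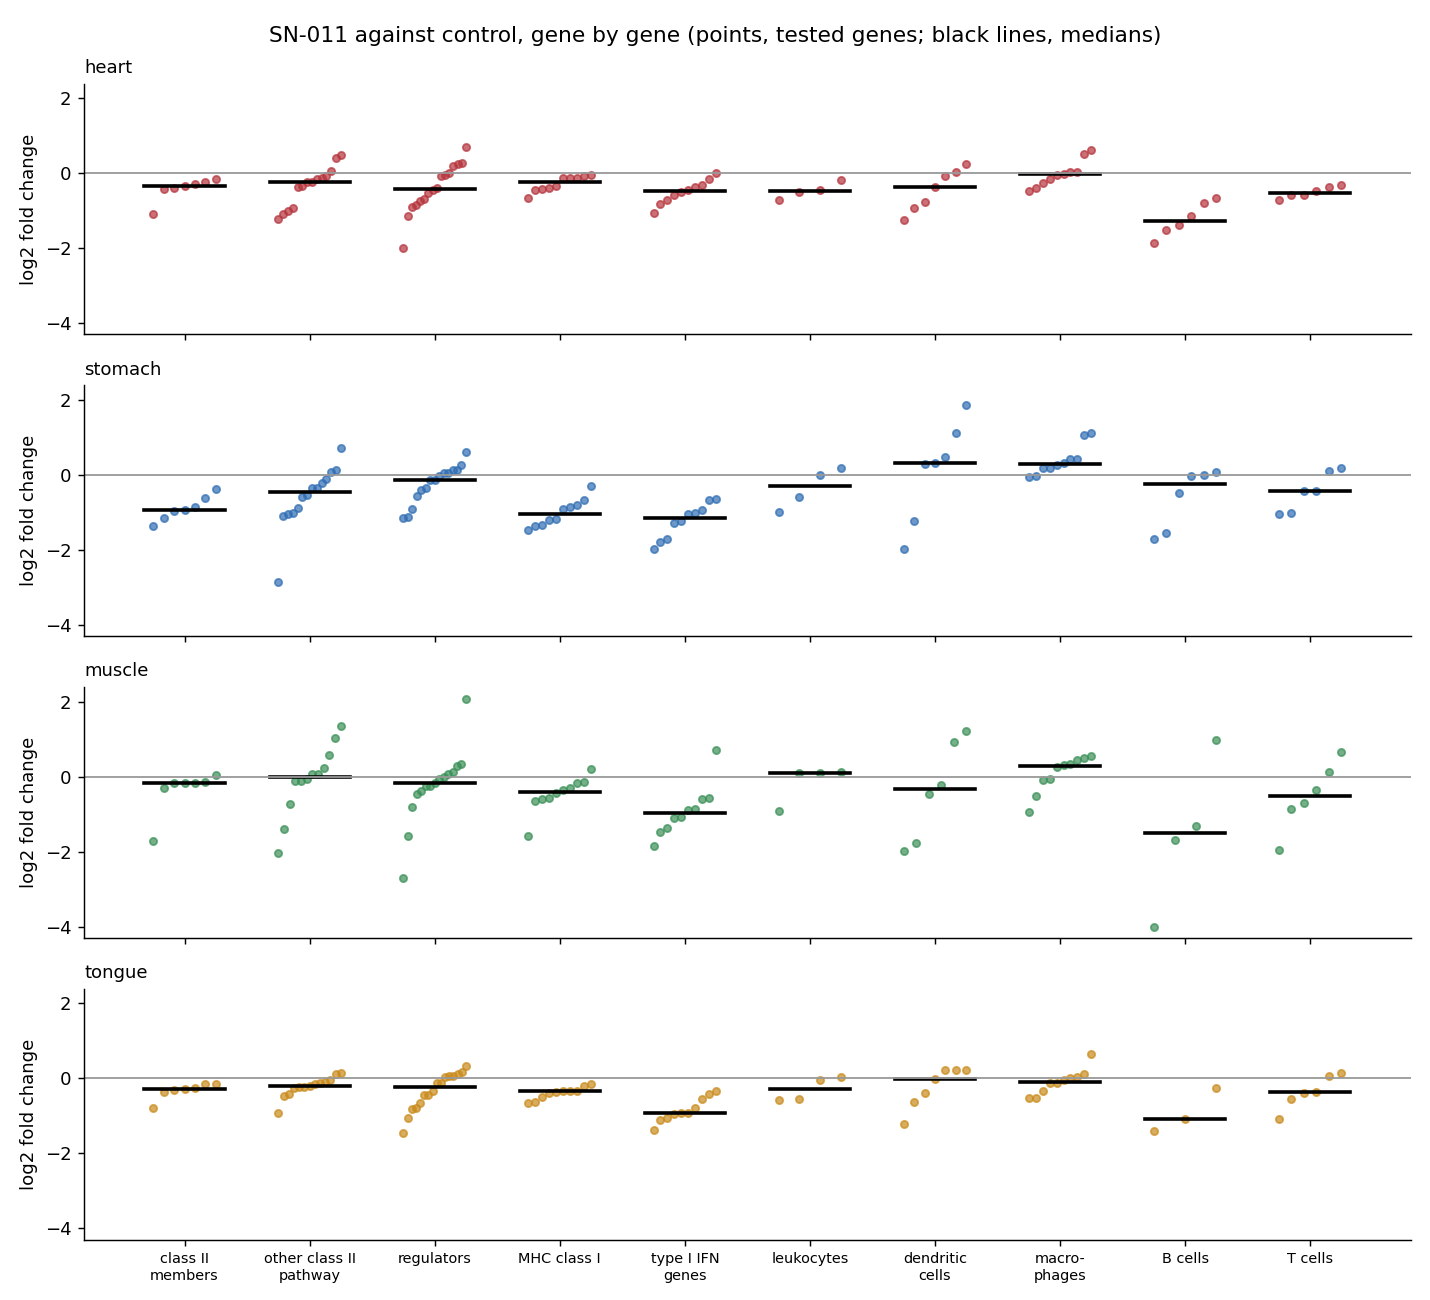
Log2 fold change of SN-011 against control for each tested gene of the lists, by tissue; points are genes and black lines medians. The stomach medians of class II members, MHC class I and type I interferon genes are −0.93, −1.04 and −1.15, dendritic cell and macrophage markers are at 0.31 and 0.28, and leukocyte, T cell and B cell markers at −0.30, −0.43 and −0.25.

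Markers of cells that hold class II were read beside these values. In the stomach, leukocyte markers (Ptprc, Cd53, Laptm5 and Coro1a) summed to 244 to 373 CPM in controls and 149.8 to 369 CPM with SN-011. Dendritic cell markers summed to 36.1 to 42.4 CPM and 23.7 to 62.8 CPM, macrophage markers to 570.3 to 851 CPM and 468 to 1338 CPM, B cell markers to 114 to 237 CPM and 109.6 to 203 CPM, and T cell markers to 58.0 to 75.2 CPM and 24.6 to 75.6 CPM. All of these overlapped between the groups, and none of the listed markers was at 0 in all 6 stomach samples. Squamous keratins (Krt13, Krt4, Krt5 and Krt14) summed to 106 to 232 CPM in the control stomach and 438 to 1446 CPM with SN-011, without overlap, and 4 of 4 were higher at an unadjusted p under 0.05 (background 13.2%). Stomach markers summed to 24420 to 67307 CPM and 17197 to 87160 CPM. The part of these differences in the class II values was not tested. In the heart, leukocyte markers summed to 533 to 971 CPM in controls and 494 to 669 CPM with SN-011, and T cell markers to 127 to 237 CPM and 107.5 to 161 CPM. Heart muscle markers (Myh6, Nppa, Tnnt2 and Tnni3) summed to 21762 to 30895 CPM in the control heart and 31622 to 38459 CPM with SN-011, without overlap. In the muscle, dendritic cell markers summed to 22.5 to 24.2 CPM in controls and 37.6 to 40.0 CPM with SN-011, T cell markers to 18.1 to 25.8 CPM and 13.2 to 16.4 CPM, and skeletal muscle markers to 91308 to 105422 CPM and 109839 to 128606 CPM, each without overlap. Their part in the class II values of heart and muscle was not tested. The higher dendritic cell sum in the muscle was not shared by most of that list. Of 6 markers tested there, 4 had a log2 fold change below 0, with a median of −0.34 and a highest value of 1.20. The B cell medians were −1.27 in the heart, −1.07 in the tongue and −1.50 in the muscle, with sums of at most 8.24 CPM in the tongue and 14.3 CPM in the muscle, where 3 and 4 of the 6 genes could be tested. Averaged over tissues, Ptprc fell among 4 leukocyte markers, Itgax and Xcr1 fell and Clec10a rose among 7 dendritic cell markers tested, and 0 of 10 macrophage markers, 0 of 6 B cell markers and 0 of 6 T cell markers passed; at an unadjusted p under 0.05, 0, 4 and 2 of these were lower (background 17%).

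Of the 7 genes, Ciita correlated least with the others from sample to sample. Over the 24 samples, Pearson's r of each gene with the mean log2 CPM of the other 6 was 0.97 for Cd74, 0.89 to 0.94 for the other structural genes and 0.61 for Ciita. After group means were taken out, r was 0.90 for Cd74, 0.65 to 0.78 for H2-Aa, H2-Ab1, H2-Eb1, H2-DMa and H2-DMb1, and 0.14 for Ciita. These values describe samples that share tissue, library and scaling, and no p is given. Ciita also had the lowest levels of the 7, with 0 counts in muscle SN-011 replicate 2, the library with few detected genes. The part of low counts and of that library in its r was not tested. Among 15819 other genes with a mean of at least 1 CPM, the 5 most like the mean of the 7 over the samples were Ly6c2 (r = 0.97), Gbp2 (0.95), H2-T23 (0.95), Sp110 (0.94) and H2-M3 (0.94). After group means were taken out, the 5 were Ly6c2 (0.92), Cxcl11 (0.84), Gpr18 (0.84), Cxcl16 (0.83) and Lcp1 (0.81).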

How the data were processed

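The authors deposited, for each sample, a raw count of reads per gene, with no normalization. Per the labels, poly(A)+ RNA was sequenced in pairs; the submitters' processing notes list HISAT2, HTSeq and mm10, whereas the study's methods name Trimmomatic, hisat2 and featureCounts with uniquely mapped pairs. Strand setting and tool versions are not given in the sources used here. Of 54532 gene identifiers, 54495 are in GENCODE M21 (GRCm38), used for symbols, positions and exon lengths. Total counts were 14253416 to 18443329.

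Samples were grouped by tissue and treatment in the labels. The quasi-likelihood test of edgeR 4.0.16 (R 4.3.3, limma 3.58.1) was run on the 6 samples of a tissue after filterByExpr (minimum count 10, minimum total 15) and TMM, with 0.125 as prior count. It was two-sided and adjusted by Benjamini-Hochberg over all genes tested, threshold 0.05. A joint fit to the 8 groups of all 24 samples gave the mean over tissues, the control tissue pairs and the differences of SN-011 changes. SE is the absolute log2 fold change over the square root of F. The fits were tested on simulated data, and no result of that test is used here. Promoters were read from RefSeq GRCm38.p6.

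All 7 members were named in every tissue; other pathway genes were listed and named only past the threshold or as close copies, and the most alike genes by r. Members and lists were chosen with earlier results of these data known. Alternatives were DESeq2 1.42.0 size factors and Wald test, library size alone, no filter, at least 10 counts in every sample, the exact test, a prior count of 2, the joint fit, a replicate block and each sample left out; the fit without control replicate 1 in every tissue was chosen after seeing the data. Tables and figures were made in Python 3.11.15 (pandas 2.3.3, matplotlib 3.10.9, numpy 2.4.6).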

Additional observations from a re-analysis of the deposited data

How the results depend on the processing

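Members called in the heart were 1 with no filter, with the DESeq2 Wald test and with edgeR's exact test; in the stomach they were 2, 5 and 4, and 5 in the joint fit. These settings also called 4.98% to 13.9% of all genes, where the quasi-likelihood test called 0.848% in the heart and 0% in the stomach. With TMM over all samples, chosen after seeing the data, 5 members in place of 2 had every muscle SN-011 sample below every control. Leaving out 1 sample gave 0 to 1 members called in heart (1 without control replicate 2), muscle (1 without SN-011 replicate 2) and tongue (1 without control replicate 1). With library size alone the muscle median was −0.41, where the median of all genes moved to −0.31. H2-Aa in the muscle was −0.20 with library size alone, −0.000754 with at least 10 counts in every sample, which drops Ciita there, −0.00546 with DESeq2, −0.059 in the joint fit and −0.086 without SN-011 replicate 2, within −0.086 to 0.15 over samples left out. Without tongue control replicate 2, H2-Aa, H2-Ab1, H2-Eb1 and H2-DMa in the tongue were 0.068, 0.033, 0.079 and 0.093, the highest of ranges over samples left out whose lowest values were −0.36, −0.47, −0.38 and −0.51. The cause was not tested for these or the other changes below.

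For the mean of 4 tissues, leaving out 1 sample gave 2 to 6 members called. The 12 libraries that left 2 or 3 were heart control 3 and SN-011 1 and 2, stomach control 2 and SN-011 2 and 3, muscle control 2 and 3 and SN-011 1, and tongue control 2 and SN-011 2 and 3. Without control replicate 1 in every tissue it was 3, with library size alone 4 (H2-Aa and Cd74 lost) and with no filter 5 (H2-Aa lost). DESeq2's Wald test also called H2-Eb1 (adjusted p = 0.0453). For the control pairs, heart against tongue gave 0 with no filter and 0 without control replicate 1 in every tissue, and 0 to 5 with 1 sample left out: 0 without heart control 1 or 3 or tongue control 1 or 3, 5 without tongue control 2, and 1 without heart SN-011 2, stomach SN-011 3, muscle control 1, 2 or 3, muscle SN-011 1 or 3 or tongue SN-011 2. With no filter, 4983 of all 34706 genes were called between heart and tongue, and after filtering 5738 of 19731 were. Stomach against muscle gave 4 with DESeq2 size factors, 6 with library size alone and 4 with the DESeq2 Wald test (11254 of all 21847 genes). It gave 0 without control replicate 1 in every tissue and 1 to 2 with 1 sample left out. Stomach against tongue gave 0 without tongue control 2 and 1 without stomach control 3, muscle against tongue 3 without tongue control 2 (H2-DMa and H2-DMb1 were lost without other libraries too, and both without control replicate 1 in every tissue), and the SN-011 change of stomach minus muscle 1 with DESeq2 and 2 without stomach control 3. H2-Ab1 between heart and tongue was −0.11 without tongue control 3 (the lowest of −0.11 to 0.39 over samples left out), −0.065 without heart control 1 and −0.15 without control replicate 1 in every tissue. Between stomach and muscle, H2-Eb1 was −0.03 (−0.030 to 0.18) without stomach control 1 and −0.00879 without control replicate 1 in every tissue, and Ciita −0.059 (−0.059 to 0.56) without stomach control 2. H2-DMa between stomach and tongue was 0.034 with DESeq2 size factors and with the Wald test, 0.35 without tongue control 2 and 0.31 without stomach control 3 (−0.27 to 0.35).

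Replicate numbers did not pair control and SN-011 samples: the mean correlation of same-numbered samples, as deviations from group means, was −0.042 (−0.33 to 0.24), and the replicate block called 0 members in every tissue. Control samples of the same number in different tissues correlated at a mean of 0.26. Where samples of 1 treatment and number were taken as a mouse, limma-voom with that block (common correlation 0.0322) called 5 members for the mean of 4 tissues, without H2-DMa. In controls, edgeR with the mouse as a fixed term called 1 between stomach and muscle. Between muscle and tongue it called 5, H2-DMa lost (adjusted p = 0.0729). This edgeR fit also ended the calls of H2-DMa between stomach and muscle, H2-Eb1 between heart and tongue and H2-Aa between stomach and tongue. Ciita in the muscle, with 0 to 121 counts a sample, had the fewest counts of the members.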
